A study of Mus musculus with 4 samples.

Results

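Glycolysis was followed through 10 genes that carry glucose from the cell surface to lactate: the transporter gene Slc2a1, the hexokinase genes Hk1 and Hk2, the phosphofructokinase gene Pfkp, and Aldoa, Gapdh, Pgk1, Eno1, Pkm and Ldha. They were taken from the expression table by symbol among protein-coding entries, which gave 11 of 55487 gene IDs because Aldoa has a second ID. Expression was measured in 4 libraries of mouse neural stem cells, 1 library for each group, so there was no replicate spread to judge a difference by, and no test was possible. The cells were primary cultures from the dorsal pallium of the embryonic neocortex, grown in N2B27 medium with bFGF and EGF. The control was a Tut1 f/f culture given empty lipid nanoparticles (LNP). The Tut1 KO library came from Tut1 f/f cells, the Trp53 KO library from p53 f/f cells and the double KO library from Tut1 f/f;p53 f/f cells, each given LNP with Cre mRNA for 3 days. Cre recombinase removes DNA between loxP sites, and the LNP reaches the whole culture with no cell type promoter behind it. The control thus differed from all other groups in treatment, and from the Trp53 KO and double KO cultures also in floxed alleles, and a p53 f/f culture with empty LNP was not analysed here.

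Glycolysis splits glucose into pyruvate in the cytosol, with a small gain of ATP. Hexokinase traps glucose by phosphorylation, phosphofructokinase commits it to the pathway, and the enzymes from aldolase to pyruvate kinase yield ATP and NADH. Lactate dehydrogenase turns pyruvate into lactate and restores NAD+. Dividing neural progenitors are known for high glycolysis, and several genes of the pathway are known targets of the hypoxia-inducible factor HIF1 and of p53. Tut1 encodes the enzyme that adds uridines to U6 snRNA, an RNA of the spliceosome.

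Values are in TPM, transcripts per 1000000 transcripts, a scale that corrects for transcript length and so lets genes be compared within a library. TPM keeps no depth, so the depth of each library is unknown from these values. Of the targeted genes, Tut1 stood at 29.8 TPM in the library labelled Tut1 KO and at 12.2 TPM in the control, and it had 12.5 TPM (Trp53 KO) and 13.7 TPM (double KO). Neither library with the Tut1 label was thus below the control, and directions drawn from both rest on their labels. The loxP sites flank exon 2 of Tut1, and TPM of the whole gene do not separate this exon, so these values do not check its loss. The study assayed the loss of this exon separately in cells treated this way and reported efficient deletion. That assay was not analysed here. Trp53 had 120, 100.4, 39.7 and 41.9 TPM in the order control, Tut1 KO, Trp53 KO, double KO, which is the order wherever 4 values stand in a row below without labels. Xist stood at 188 (Tut1 KO) and 204 TPM (Trp53 KO), while the other libraries, control and double KO, had 0.01 TPM of it and alone held transcripts of the Y-linked gene Ddx3y (24.4 and 25.7 TPM). Xist and Y-linked transcripts therefore differed within every contrast except double KO minus control. This difference cannot be told apart from genotype, and its part in the differences below was not tested. All 10 neural stem cell markers had at least 1 TPM in each library, whereas the markers of endothelial cells, microglia, fibroblasts and red blood cells all stayed below 1 TPM. The stem cell markers summed to 12695, 11350, 10782 and 12476 TPM, lowest in the Trp53 KO library. In Trp53 KO minus control their median on the log2(TPM + 1) scale was -0.22, against -0.05 over all genes. Of the 10, 3 lay above 0, as did 40.1% of all genes. Their median was -0.16 in Tut1 KO minus control, with 9 of 10 below 0, against -0.09 and 60.7% over all genes. In double KO minus Tut1 KO it was 0.26, with 7 of 9 above 0, against 0.09 and 60.3%. Neuronal markers summed to between 164 TPM (Tut1 KO) and 238 TPM (control), and the part of both marker lists in the differences below was not tested. In bulk RNA, fewer cells of a type and less RNA per cell cannot be told apart.

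Transcript sequences of Gapdh and Eno1 are repeated across the mouse genome as near-identical copies. Gapdh, which encodes glyceraldehyde-3-phosphate dehydrogenase (ENSMUSG00000057666, chr6:125161715-125166467, minus strand, GRCm38), had 174 annotated copies in the table that matched its transcripts at 90% identity or more over at least 50% of their own length. Of these, 164 were annotated as processed pseudogenes, DNA copies of an mRNA without introns. A stretch of 120 coding bases is shown for Gapdh (chr6:125163317-125163436, minus strand) and for its most abundant copy, Gm7336 (chr7:51746720-51746839, plus strand), from GENCODE M21 (GRCm38). The stretches are shown to make plain that a read lying wholly within them could not be assigned to a single locus.
Gapdh: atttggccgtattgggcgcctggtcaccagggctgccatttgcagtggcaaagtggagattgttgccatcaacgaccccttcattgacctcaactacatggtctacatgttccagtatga
Gm7336: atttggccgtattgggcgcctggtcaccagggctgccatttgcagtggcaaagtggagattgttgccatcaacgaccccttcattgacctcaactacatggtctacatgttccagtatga
The stretches were identical. Over 1232 aligned positions the 2 transcripts differed at 1 base and at 2 gap positions.

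Eno1, which encodes enolase 1 (ENSMUSG00000063524, chr4:150236721-150248879, plus strand), had 8 such copies. The most abundant of them was Gm4735, followed by Eno1b. The following 120 coding bases of Eno1 (chr4:150246599-150246718, plus strand) and of Gm4735 (chr2:80837837-80837956, plus strand) carry the differing bases in capitals.
Eno1: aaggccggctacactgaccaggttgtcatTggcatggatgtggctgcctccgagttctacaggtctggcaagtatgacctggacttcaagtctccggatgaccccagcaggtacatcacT
Gm4735: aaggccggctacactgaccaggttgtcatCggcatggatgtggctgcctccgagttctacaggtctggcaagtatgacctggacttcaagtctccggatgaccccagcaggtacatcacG
The pair differed at 2 bases here and at 5 of 1302 aligned positions, an identity of 99.6%. Ldha had 11 copies, Pkm 6, Aldoa 4 and Pgk1 4. No copy was matched to Slc2a1, Hk1, Hk2 or Pfkp, so adding copies left the values of these 4 genes as they were. How the authors' pipeline divided them was not given in the sources used here.

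Across the pathway, 9 of the 10 genes had their highest level in the Trp53 KO library, whereas Hk1 peaked in the Tut1 KO library. Of 9314 genes with at least 10 TPM in some library, 19.6% peaked in Trp53 KO and 23.1% in Tut1 KO. The lowest level fell to the Tut1 KO library for Slc2a1, Hk2, Pfkp, Pgk1 and Ldha (41.1% of all genes were lowest there), to the double KO library for Aldoa, Gapdh, Eno1 and Pkm (17.1% of all genes) and to the control for Hk1 (17.5% of all genes). None of the 10 was lowest in the Trp53 KO library, where 24.3% of all genes were. The genes act in 1 pathway and were read from the same 4 libraries, so they are not independent of each other. Their share of all TPM was 0.964% (control), 0.878% (Tut1 KO), 1.19% (Trp53 KO) and, at the least, 0.848% (double KO). With matched copies added, the shares were 1.68%, 1.68%, 2.25% and 1.77%, and the Trp53 KO library was again the highest for the same 9 genes.

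**Figure D1:**
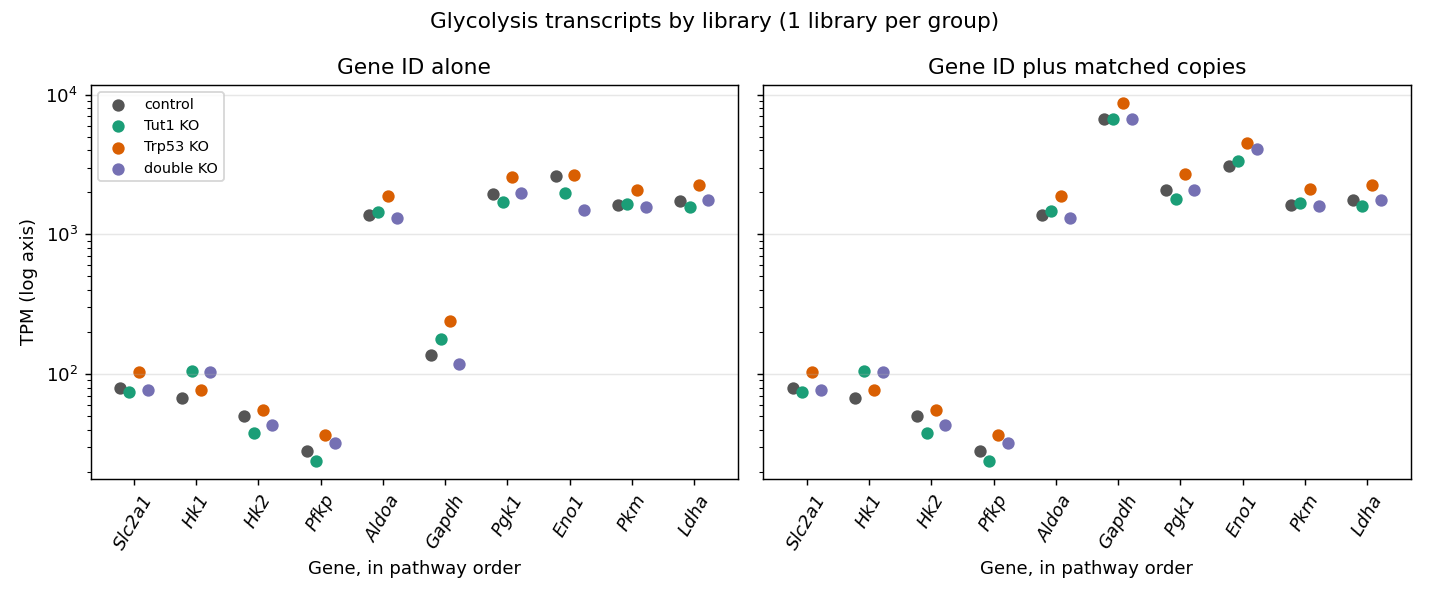
TPM of the 10 glycolysis genes on a log axis, in pathway order, with a point for each library; left, the gene ID alone, and right, the gene ID plus its matched copies. The Trp53 KO point is the highest for every gene but Hk1, and Gapdh stands at 117 to 242 TPM alone and at 6677 to 8718 TPM with copies.

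Slc2a1 encodes GLUT1, the main carrier of glucose into brain cells (ENSMUSG00000028645, chr4:119108711-119137983, plus strand). It had 79.7 (control), 74.1 (Tut1 KO), 103.6 (Trp53 KO) and 77.3 TPM (double KO). The Trp53 KO library stood apart and the other 3 lay close together. Slc2a3, which encodes the neuronal carrier GLUT3, had 61.6, 48.0, 94.0 and 60.4 TPM in the same order, so it too peaked in Trp53 KO. Slc2a1 held 56.4%, 60.7%, 52.4% and 56.1% of the summed TPM of these carriers.

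The hexokinases went different ways. Hk1 (ENSMUSG00000037012, chr10:62268855-62379908, minus strand), which encodes the isozyme found in most brain cells, had 67.5 TPM (control) and 77.2 TPM (Trp53 KO), against 104.5 TPM (Tut1 KO) and 104.2 TPM (double KO). Both libraries with the Tut1 label were thus higher than both without it. Hk2 (ENSMUSG00000000628, chr6:82725025-82774454, minus strand), which encodes the isozyme of growing and hypoxic tissues, had 49.7 TPM (control) and 55.1 TPM (Trp53 KO), against 37.7 TPM (Tut1 KO) and 42.9 TPM (double KO). Hk2 was thus lower in both libraries with the Tut1 label. Of all 9314 genes, 15.3% were higher in both such libraries and 17.1% lower in both. Among the 10 genes, Hk1 was higher in both, while Hk2, Slc2a1 and, by its gene ID alone, Eno1 were lower. Each pair of libraries held 1 with Xist transcripts and 1 without. As a share of all hexokinase TPM within a library, which does not depend on how libraries are scaled to each other, Hk1 took 57.3% (control) and 57.8% (Trp53 KO), against 72.7% (Tut1 KO) and 70.5% (double KO). Hk2 took 42.2%, 41.2%, 26.2% and 29.0% in that order. The summed hexokinase TPM was 148 (double KO), 144 (Tut1 KO), 134 (Trp53 KO) and 118 (control). Hk1 overlaps exons of the antisense gene Hk1os, which had at most 2.54 TPM.

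Pfkp encodes the platelet isozyme of phosphofructokinase (ENSMUSG00000021196, chr13:6579768-6648777, minus strand). It was the least abundant of the 10 genes in every library, with 28.2 (control), 23.9 (Tut1 KO), 36.6 (Trp53 KO) and 32.3 TPM (double KO). Here the double KO library lay above the control and the Tut1 KO library below it. Pfkp supplied 10.5%, 8.92%, 10.9% and 11.7% of phosphofructokinase TPM in the order control, Tut1 KO, Trp53 KO, double KO, and most of the rest came from the liver isozyme gene Pfkl (169, 161, 223 and 166 TPM). Exons of Pfkp overlap those of Pitrm1 on the other strand, a gene with 40.6 to 52.4 TPM.

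**Figure D2:**
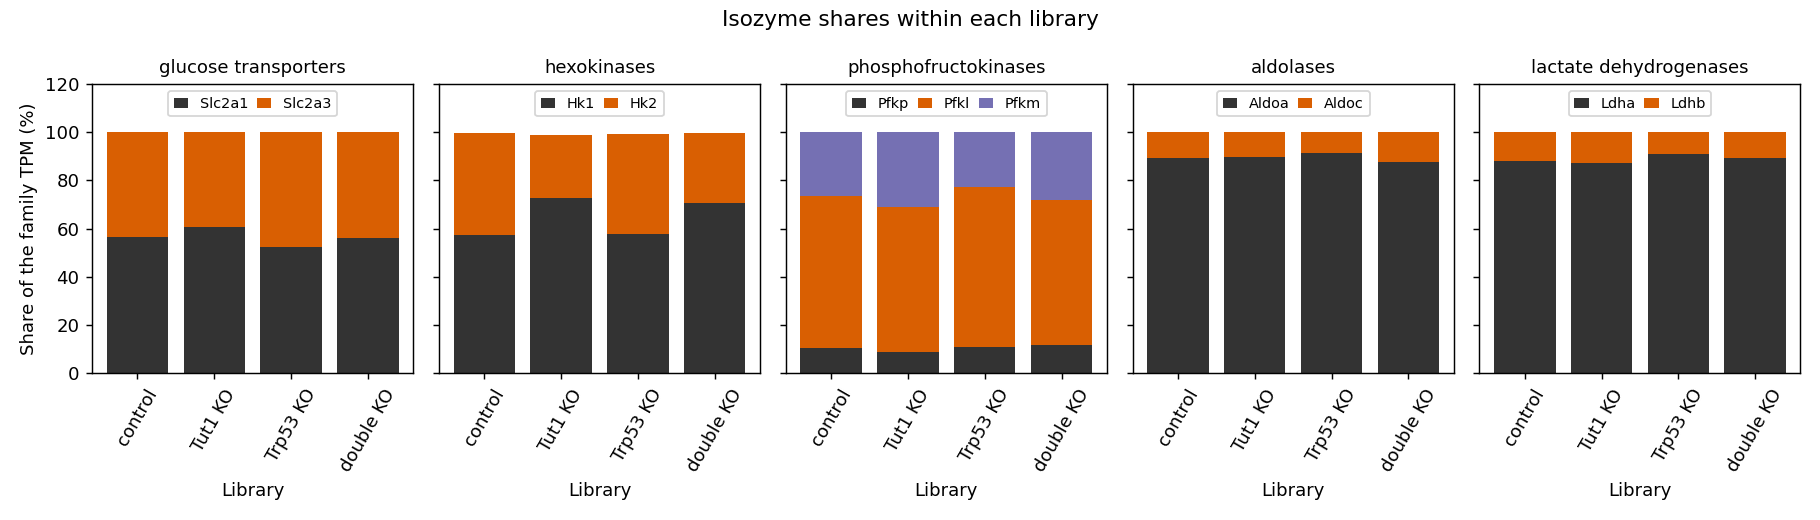
Share of the summed TPM of each enzyme family taken by its isozymes, in percent, in the 4 libraries; isozymes under 1.5% of the family are not drawn. Hk1 takes 72.7% and 70.5% of hexokinase TPM in the Tut1 KO and double KO libraries and 57.3% and 57.8% in the control and Trp53 KO libraries, while the aldolase and lactate dehydrogenase shares lie within 87.6% to 91.4% and 86.9% to 90.7%.

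Aldoa encodes aldolase A, which splits the 6-carbon sugar (ENSMUSG00000030695, chr7:126795234-126800751, minus strand). It had 1364 (control), 1455 (Tut1 KO), 1871 (Trp53 KO) and 1312 TPM (double KO), and ranked between 62 and 97 among 21894 protein-coding genes. Its second ID (ENSMUSG00000114515) had 2.91 to 5.10 TPM, below the minimum used for contrasts. Aldoa took 87.6% to 91.4% of aldolase TPM, and the brain isozyme gene Aldoc (163, 167, 177 and 186 TPM) gave nearly all the rest.

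Gapdh had 136 (control), 179 (Tut1 KO), 242 (Trp53 KO) and 117 TPM (double KO) when the gene ID was read alone. The Trp53 KO library was the highest and the double KO library the lowest. Added to its copies, Gapdh had 6694, 6698, 8718 and 6677 TPM. The double KO, Tut1 KO and control libraries were then nearly level, and only the Trp53 KO library stood above them. The gene ID itself held 2.03%, 2.67%, 2.77% and 1.76% of the sum, so the level listed for Gapdh rests on a small part of the transcripts that match it. Gm7336 alone had 1180, 1088, 1525 and 1189 TPM. Of the 20 copies with at least 10 TPM in some library, which were at least 98.5% identical to Gapdh, all 20 were highest in the Trp53 KO library. Over all genes, 19.6% were highest there. Gm10481 (7.55, 9.06, 11.1 and 7.73 TPM) reached 10 TPM only in that library, so the minimum fixed its place. Because the 20 copies share the sequence of Gapdh, they are not separate measurements. Gapdh also overlaps exons of Iffo1 on the other strand, which had 13.5 to 25.3 TPM.

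Pgk1 encodes phosphoglycerate kinase, the first ATP-yielding step (ENSMUSG00000062070, chrX:106187100-106203699, plus strand). It had 1943 (control), 1703 (Tut1 KO), 2557 (Trp53 KO) and 1970 TPM (double KO). Pgk1 is the only X-linked gene of the 10. Its lowest level was in the Tut1 KO library and its highest in the Trp53 KO library, the 2 libraries with Xist transcripts. The gene kept 94.0% to 95.5% of the sum with its copies.

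Eno1 had 2616 (control), 1977 (Tut1 KO), 2665 (Trp53 KO) and 1497 TPM (double KO) by its gene ID. The control and the Trp53 KO library lay close together and the double KO library was far lower. Its copies went another way, with summed levels of 445, 1359, 1839 and 2575 TPM. Gm4735 had 232, 773, 1085 and 1528 TPM and Eno1b had 211, 574, 744 and 1035 TPM, so both were lowest in the control and highest in the double KO library. The sum of gene and copies was 3061 (control), 3336 (Tut1 KO), 4505 (Trp53 KO) and 4073 TPM (double KO). The gene ID of Eno1 held 85.5% of this sum in the control, the highest share, and 36.8% in the double KO library, with 59.3% (Tut1 KO) and 59.2% (Trp53 KO) between them. On the sum, the control and not the double KO library was the lowest.

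**Figure D3:**
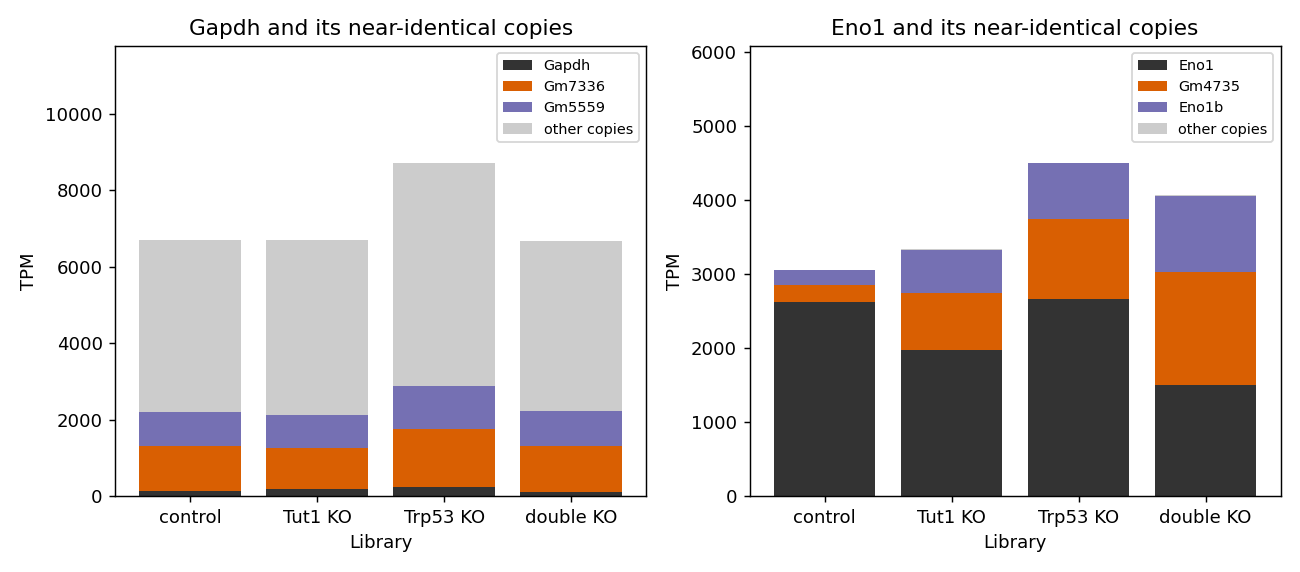
Stacked TPM, on a linear axis from 0, of Gapdh (left) and Eno1 (right) with their 2 most abundant copies and all other copies, in the 4 libraries. The gene ID of Gapdh is the thin base of each bar, 1.76% to 2.77% of its height, and the Eno1 part shrinks from 85.5% (control) to 36.8% (double KO) while the whole bar is lowest in the control.

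Pkm encodes the M1 and M2 forms of pyruvate kinase (ENSMUSG00000032294, chr9:59656368-59679375, plus strand). It had 1613 (control), 1651 (Tut1 KO), 2080 (Trp53 KO) and 1567 TPM (double KO), with the Trp53 KO library alone standing out. The liver gene Pklr was listed at 0 in all 4 libraries. The values are at gene level, so the M1 and M2 splice forms of Pkm were not separated. Pkm shares exons on its own strand with Gm49759, which had 18.3 to 21.9 TPM.

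Ldha encodes the lactate dehydrogenase subunit that favours lactate (ENSMUSG00000063229, chr7:46841475-46855627, plus strand). It had 1738 (control), 1576 (Tut1 KO), 2243 (Trp53 KO) and 1763 TPM (double KO). Ldhb, whose subunit favours pyruvate, had 241, 237, 229 and 214 TPM, and its highest library was the control. Ldha took 87.8%, 86.9%, 90.7% and 89.2% of their summed TPM.

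By gene ID alone, the control ranked the genes Eno1, Pgk1, Ldha, Pkm and Aldoa, from 2616 down to 1364 TPM, then Gapdh at 136 TPM, and Slc2a1, Hk1, Hk2 and Pfkp from 79.7 down to 28.2 TPM. With copies added, Gapdh stood first at 6694 TPM. With a single library in each group, which neighbours in this order differ could not be tested.

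Promoters were read for HIF1 and E-box letters, since the known HIF1 sites of this pathway carry them. The core ACGTG was sought on both strands in the 250 bases before each RefSeq start (GRCm38.p6), and 17 promoters of the 10 genes were found. Of these, 7 (41.2%) held the core, in Slc2a1, Hk2, Aldoa, Pgk1, Pkm and Ldha, compared with 23.0% of the promoters of genes with at least 10 TPM and 16.6% of all promoters searched. The 2 Aldoa promoters among the 7 overlap and hold the same match. Counted by gene, 6 of 10 held the core in some promoter, compared with 26.9% of genes with at least 10 TPM. Pgk1 (chrX:106186850-106187099, plus strand), Hk2 (chr6:82774455-82774704, minus strand) and Ldha (chr7:46845554-46845803, plus strand) are shown because they held 2 or more matches, in capitals as ACGTG or, on the other strand, CACGT.
Pgk1: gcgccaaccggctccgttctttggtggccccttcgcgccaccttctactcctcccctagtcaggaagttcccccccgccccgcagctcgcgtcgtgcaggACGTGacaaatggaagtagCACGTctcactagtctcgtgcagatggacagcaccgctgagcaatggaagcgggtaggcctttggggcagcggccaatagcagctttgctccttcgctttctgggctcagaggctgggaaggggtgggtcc
Hk2: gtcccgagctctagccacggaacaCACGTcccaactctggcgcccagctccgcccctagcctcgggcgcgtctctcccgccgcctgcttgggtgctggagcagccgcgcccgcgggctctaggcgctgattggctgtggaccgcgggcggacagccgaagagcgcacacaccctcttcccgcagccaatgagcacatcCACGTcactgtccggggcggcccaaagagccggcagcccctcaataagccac
Ldha: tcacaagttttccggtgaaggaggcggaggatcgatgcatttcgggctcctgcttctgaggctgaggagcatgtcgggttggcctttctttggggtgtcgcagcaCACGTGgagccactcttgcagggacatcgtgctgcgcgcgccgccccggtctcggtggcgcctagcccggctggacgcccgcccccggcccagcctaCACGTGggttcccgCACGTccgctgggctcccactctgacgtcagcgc
In Ldha the core occurred 5 times, because the palindrome CACGTG, an E-box and also a match on each strand, occurred 2 times. CACGTG was found in 1 of the 17 promoters and in 8.63% of the promoters of genes with at least 10 TPM. With GCGTG allowed as well as ACGTG, 14 of 17 promoters (82.4%) held a match, against 58.6% of promoters of genes with at least 10 TPM, and by gene all 10 held one, against 64.9%. Of the 3 Eno1 windows, 2 overlap as well. Eno1, Gapdh, Hk1 and Pfkp had no ACGTG in these windows. A match is a description of letters, and binding was not measured here.

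Trp53 KO minus control, taken as a difference of log2(TPM + 1) that understates changes of low genes, asked for the change with the Trp53 label. All 10 genes were above 0, with a median of 0.37, against a median of -0.05 over 9055 genes with at least 10 TPM in either library. Above 0 were 40.1% of those genes. No member reached a 2-fold difference (a difference of 1), compared with 3.83% of all genes. The differences ran from 0.03 for Eno1 and 0.14 for Hk2 to 0.46 for Aldoa and 0.82 for Gapdh. Gapdh was the only one past 1.5-fold (higher in 4.09% of all genes). With copies added, Gapdh came to 0.38 and Eno1 to 0.56, and the median stayed at 0.37. Under quantile normalization Eno1 alone turned below 0 (-0.11), and then 9 genes were above 0 and 8 highest in the Trp53 KO library.

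In cells that also carried the Tut1 label, the Trp53 label was asked by double KO minus Tut1 KO, in which both cultures had Cre and which shares no library with the contrast above. Here 5 members were above 0, where 60.3% of 8950 genes lay, and 5 below, with a median of 0.03 against 0.09 over all genes. No gene was past 2-fold, compared with 3.9% of all genes. Pfkp had the highest difference (0.42) and Gapdh the lowest (-0.60), which was past 1.5-fold (lower in 4.18% of all genes) and became -0.00 with copies. The median of the members was 0.11 with copies and -0.058 once the median of all genes was set to 0, so no direction could be read for the group.

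For the Tut1 label with intact Trp53 the contrast was Tut1 KO minus control, and Cre treatment differed there too. In it, 4 members lay above 0 and 6 below, where 60.7% of 9032 genes lay, and their median was -0.12 against -0.09 over all genes. None was past 2-fold, compared with 4.1% of all genes. Hk1 (0.62) was the only gene past 1.5-fold (higher in 4.01% of all genes), and Eno1 (-0.40) and Hk2 (-0.39) were the lowest. With copies added, Eno1 came to 0.12.

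For the Tut1 label without Trp53 the contrast was double KO minus Trp53 KO, both with Cre. In this contrast 9 of 10 genes were below 0 and Hk1 (0.43) was above. Below 0 were 41.3% of 8976 genes. The median of the members was -0.39 against 0.05 over all genes. Gapdh (-1.03) was the only gene past 2-fold (lower in 1.79% and past it either way in 3.21% of all genes), and this call ended with copies added, where its difference was -0.38. Eno1 (-0.83), like Gapdh past 1.5-fold (lower in 4.41% of all genes), came to -0.15 with copies. The other 7 genes below 0 lay between -0.51 (Aldoa) and -0.18 (Pfkp). The 9 genes below 0 here are the 9 that were highest in the Trp53 KO library, a library that this contrast shares with Trp53 KO minus control.

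With both labels against the control, double KO minus control, which shares its libraries with the contrasts above, gave a median of -0.04 against -0.00 over 9022 genes, with 4 genes above 0 and 6 below (50.2% of all genes). Again none was past 2-fold (3.31% of all genes). Hk1 (0.62) was higher and Eno1 (-0.80) lower by more than 1.5-fold (7.76% of all genes either way), and Eno1 turned to 0.41 with copies. The other 8 genes lay between -0.21 and 0.19.

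**Figure D4:**
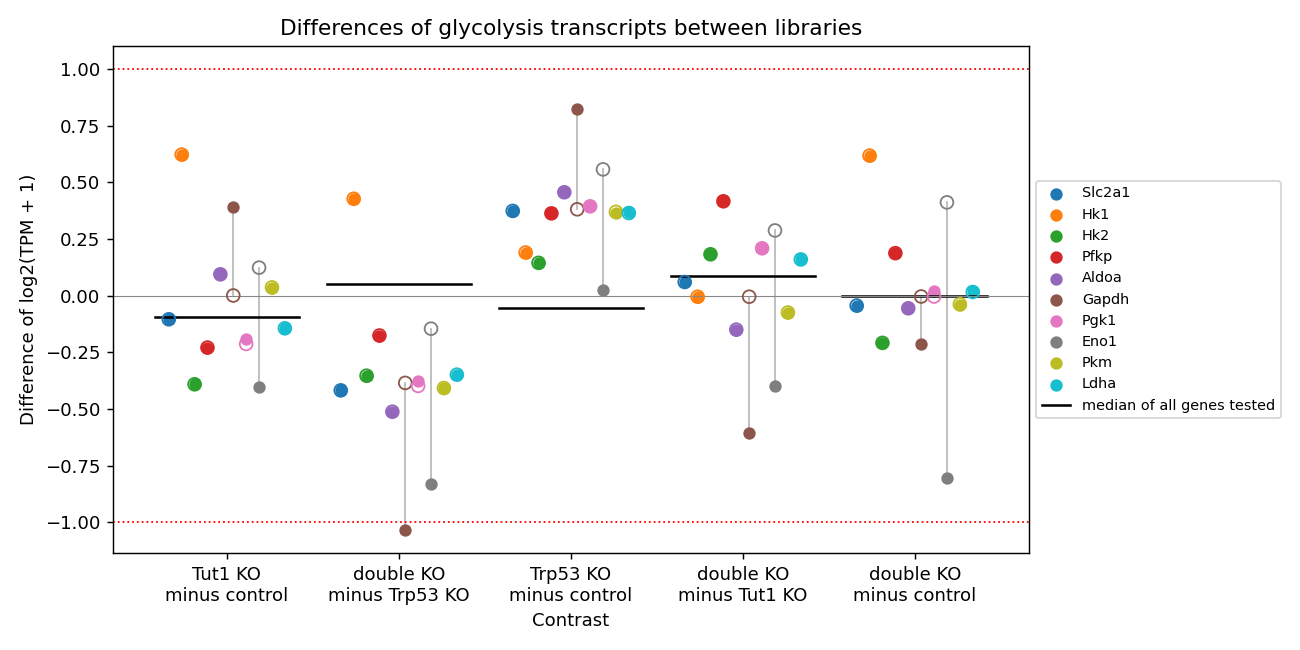
Difference of log2(TPM + 1) of the 10 genes in the 5 contrasts; filled points are the gene ID alone, open points the gene with copies, grey lines join both, black bars mark the median of all genes tested and dotted lines a 2-fold difference. In Trp53 KO minus control all points lie above 0, and in double KO minus Trp53 KO all but Hk1 lie below 0, with Gapdh at -1.03 alone and -0.38 with copies.

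The profile shared by the 10 genes was compared with other genes over the 4 libraries, by the distance between log2(TPM + 1) values centred on each gene's own mean. Pkm lay nearest to the mean profile of the 10 (distance 0.05), followed by Slc2a1 (0.07) and Aldoa (0.12). Hk1 lay farthest (0.75), and Gapdh (0.54) and Eno1 (0.53) were next. Among 8363 other protein-coding genes the nearest to that mean were P3h1, Iqcb1, Sec11a, Tm9sf4 and Dop1b, at distances from 0.022 to 0.039. P3h1, which encodes a collagen prolyl hydroxylase, had 15.7, 15.5, 20.6 and 15.0 TPM. A likeness over 4 points says little.

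The remaining enzymes and carriers of glycolysis were read from a list of 28 genes, of which 13 had at least 10 TPM in some library. Among these, 6 were highest in the Trp53 KO library, as were 19.6% of all genes. They were Slc2a3, Slc16a3 and the genes of 4 enzymes: Gpi1 (804, 814, 1073 and 776 TPM), which follows hexokinase, Pfkl, Tpi1 (938, 1031, 1277 and 987 TPM), which follows aldolase, and Pgam1 (993, 942, 1194 and 973 TPM), which precedes enolase. In Trp53 KO minus control the 13 genes had a median of 0.15, with 9 above 0, against a median of -0.05 and 40.1% above 0 over all genes. Slc16a3, which encodes the lactate exporter MCT4, had 52.0 (control), 57.7 (Tut1 KO), 115 (Trp53 KO) and 64.2 TPM (double KO). It was the only gene of this list past 2-fold in any contrast, with a difference of 1.14 in Trp53 KO minus control. Over all genes, 8.6% were past 2-fold in at least 1 of the 5 contrasts. In double KO minus Trp53 KO the median of the list was -0.30, with 8 of 13 below 0, against 0.05 and 41.3% below 0 over all genes. That contrast shares the Trp53 KO library with Trp53 KO minus control. The other contrasts gave medians near those of all genes, at -0.04 against -0.09 in Tut1 KO minus control, 0.05 against 0.09 in double KO minus Tut1 KO and 0.01 against -0.00 in double KO minus control.

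Genes that HIF1 is known to induce outside glycolysis were also mostly highest in the Trp53 KO library. Of 18 listed, 16 had at least 10 TPM in some library, and 12 of the 16 were highest in the Trp53 KO library, as were 19.6% of all genes. Their median in Trp53 KO minus control was 0.34, with 13 above 0, against -0.05 and 40.1% above 0 over all genes. Double KO minus Trp53 KO gave -0.47, with 14 below 0, against 0.05 and 41.3% below 0. Both contrasts include the Trp53 KO library, so the 12 genes highest there count in each by that fact alone. In Tut1 KO minus control the median was -0.31, with 12 below 0, against -0.09 and 60.7% below 0. The double KO minus Tut1 KO contrast gave 0.27, with 11 above 0, against 0.09 and 60.3% above 0, and double KO minus control gave -0.06, with 11 below 0, against -0.00 and 50.2% below 0. Past 2-fold in some contrast were 4 of the 16, against 8.6% of all genes. Vegfa, the vascular growth factor gene, had 257, 162, 352 and 243 TPM. The mitophagy receptor gene Bnip3 had 239, 162, 374 and 212 TPM, and the oxidoreductase gene Ero1a had 102, 65.2, 184 and 100.6 TPM. In these 3 genes the Trp53 KO library was the highest and the Tut1 KO library the lowest. Ndrg1, a stress-responsive gene, had 12.9, 15.1, 32.9 and 18.6 TPM and was past 2-fold in Trp53 KO minus control (1.29). P4ha2, which encodes a prolyl hydroxylase subunit, had 13.6, 11.7, 23.2 and 9.03 TPM and was past 2-fold in double KO minus Trp53 KO (-1.27). Higd1a went its own way, with 246, 100.7, 180 and 234 TPM, and was past 2-fold in Tut1 KO minus control (-1.28) and double KO minus Tut1 KO (1.21). Mxi1, which encodes a repressor that opposes MYC, had 13.7 TPM (control) and 40.7, 38.0 and 33.1 TPM in the libraries with Cre. Of all 9314 genes, 43 (0.462%) were lower in the control than in each Cre library by 2-fold. The gene of HIF1 alpha itself, Hif1a, had 63.4, 35.7, 53.3 and 54.8 TPM and was highest in the control. HIF1 is set mainly by the stability of its protein, which was not measured here.

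Regulators of the pathway were read from a list of 24 genes, 16 of them with at least 10 TPM in some library. Their median was -0.16 in Tut1 KO minus control, 0.04 in double KO minus Trp53 KO, -0.08 in Trp53 KO minus control, 0.13 in double KO minus Tut1 KO and 0.05 in double KO minus control, against -0.09, 0.05, -0.05, 0.09 and -0.00 over all genes. The only gene of the 16 past 2-fold in a contrast, against 8.6% of all genes, was Pfkfb3, which encodes the enzyme that makes fructose 2,6-bisphosphate, the strongest activator of phosphofructokinase. It had 50.3 (control), 7.46 (Tut1 KO), 12.2 (Trp53 KO) and 8.81 TPM (double KO). All 3 libraries with Cre were thus far below the control, by -2.60, -1.96 and -2.39, with each floxed genotype. Of all 9314 genes, 45 (0.483%) were higher in the control than in each Cre library by 2-fold. Tigar, a p53 target that lowers fructose 2,6-bisphosphate, had 10.9, 8.63, 8.45 and 11.9 TPM and was past 2-fold in no contrast. Ptbp1, Hnrnpa1 and Hnrnpa2b1, which control the splicing of Pkm, were past 2-fold in none either.

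**Figure D5:**
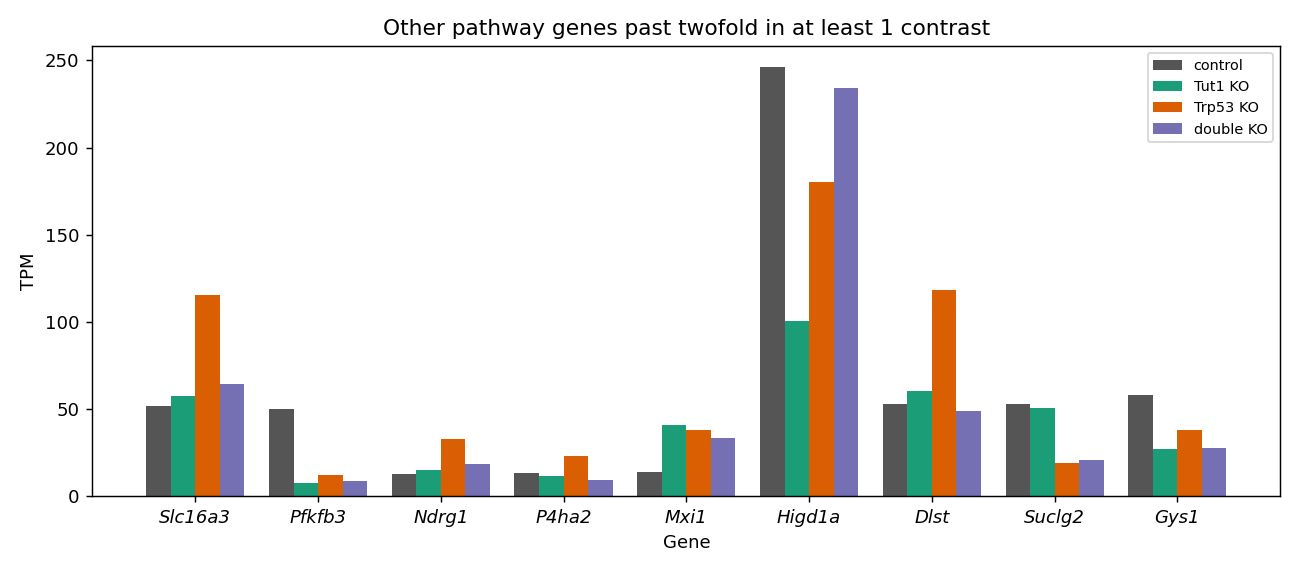
TPM, on a linear axis from 0, of the pathway genes outside the 10 that were past 2-fold in at least 1 of the 5 contrasts, with a bar for each library. Pfkfb3, Gys1, Higd1a and Suclg2 are highest in the control, Mxi1 is lowest there at 13.7 TPM, and Slc16a3, Ndrg1, P4ha2 and Dlst are highest in the Trp53 KO library.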

How the data were processed

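TPM per gene were computed by the authors and deposited as a single table for 55487 mouse gene IDs and 4 libraries. Submitters' processing notes name Trimmomatic, HISAT2, StringTie and mm10, without roles or versions. Whether short or long reads lie behind the values is not settled, since a short-read kit is named in the labels and long reads in the series text, and any pooling of cultures was not given in the sources used here. From the deposited TPM, differences of log2(TPM + 1) were taken in 5 contrasts over genes that reached 10 TPM in either library compared. A gene was called past a difference of 1 (2-fold) or, as an alternative, 1.5-fold. With 1 library in each group there was no test, error or interval. The 10 genes, the 7 pathway lists, the marker lists and the naming rule were chosen with earlier results of these data known. Named were all 10 genes, their isozymes, list genes past 2-fold in a contrast and the 5 genes nearest in profile. List genes under 2-fold that are named with values were chosen after those values were seen. Copies were transcripts of other annotated genes matched with BLAST+ 2.17.0 to transcripts of the members (GENCODE M21), at 90% identity or more over at least 50% of the copy. Promoters on 1 chromosome were not searched for motifs. The table was joined by Ensembl ID, and 55141 of 55487 IDs (99.4%) were found. Alternatives were a pseudocount of 0.1 or 5, other TPM minima, quantile normalization, a zero median over all genes, TPM rescaled without 137 genes of ribosomal proteins or of the mitochondrial genome, a GC and length correction, and copies added. Adding copies to the other pathway genes, and medians without Gapdh and Eno1, were chosen after the data were seen. The scripts were tested on simulated data. Python 3.11.15, numpy 2.4.6, pandas 2.3.3 and matplotlib 3.10.9 were used.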

Additional observations from a re-analysis of the deposited data

Results flagged for a closer look

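Gapdh, read by its gene ID alone, moved in opposite directions under the Trp53 label. It had 136 TPM (control) and 242 TPM (Trp53 KO), a difference of 0.82, and 179 TPM (Tut1 KO) and 117 TPM (double KO), a difference of -0.60. The first effect exceeded the second by 1.43 on the log2 scale. With 1 library in each group this difference between the effects was not tested. With matched copies added, the effects were 0.38 and -0.00. Xist differed in opposite order in the 2 contrasts, and its part in the difference was not tested.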

How the results depend on the processing

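The count of genes highest in the Trp53 KO library was 9, and 8 under quantile normalization, and the count below 0 in double KO minus Trp53 KO was 9 throughout. Values that changed follow in the contrast order Tut1 KO less control, double KO less Trp53 KO, Trp53 KO less control, double KO less Tut1 KO and double KO less control. Setting the median of all genes to 0 turned the median of the members in double KO minus Tut1 KO from 0.03 to -0.058. Quantile normalization lowered the median in Trp53 KO minus control from 0.37 to 0.26. Adding copies took the members past 2-fold in double KO minus Trp53 KO from 1 (Gapdh) to 0. At 1.5-fold, 1, 2, 1, 1 and 2 members were past the threshold, against 0, 1, 0, 0 and 0 at 2-fold. Over all genes, 370, 288, 347, 349 and 299 were past 2-fold. A TPM minimum of 1, or none, gave 693, 564, 644, 678 and 619, a minimum of 10 in both libraries 147, 115, 128, 135 and 136, and a 1.5-fold threshold 1094, 708, 762, 955 and 700. Among 50 differences of single members, copies moved 10 by over 0.1 on the log2 scale, quantile normalization 18 and the GC and length correction 5. No paired analysis was possible because each group has a single library. Leaving out a replicate was not possible for the same reason. Since TPM keep no depth, no interval for counting error could be given.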

Other observations

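Past pyruvate, the tricarboxylic acid cycle was read from 16 genes. Of these 16, all with at least 10 TPM, 1 was highest and 10 were lowest in the Trp53 KO library, where 19.6% of all genes were highest and 24.3% lowest, and the median in Trp53 KO minus control was -0.04, near that of all genes (-0.05). Of these genes, Dlst and Suclg2 were past 2-fold in a contrast, against 8.6% of all genes past it in at least 1 contrast. Dlst, a subunit of the 2-oxoglutarate dehydrogenase complex, had 52.8, 60.5, 118 and 49.0 TPM in the order control, Tut1 KO, Trp53 KO, double KO, so that Trp53 KO exceeded control by 1.15 on the log2 scale and the double KO differed from Trp53 KO by -1.25. Suclg2, the GTP-forming subunit of succinyl-CoA synthetase, had 52.8 and 50.6 TPM in the control and Tut1 KO libraries against 19.1 and 20.5 TPM in the Trp53 KO and double KO libraries. Both libraries with the Trp53 label were thus lower, as were 13.4% of all genes, at -1.42 for Trp53 KO minus control and at -1.26 for double KO minus Tut1 KO, or -1.16 and -1.06 with a matched pseudogene added. At the entry of pyruvate into mitochondria, none of 10 genes was past 2-fold, near the same 8.6%. Of the 10, 3 were highest in the Trp53 KO library, against 19.6% of all genes. In Trp53 KO minus control 9 were compared, with a median of -0.02 and 4 above 0, against -0.05 and 40.1% over all genes. The highest difference there (0.51) was that of Pdk1, with 60.8, 48.0, 87.0 and 57.7 TPM. Its kinase closes this entry, and HIF1 is known to induce the gene.

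In the pentose phosphate pathway none of 7 genes was past 2-fold, again near 8.6%, and medians ran from -0.24 (double KO minus control, where that of all genes was -0.00) to 0.01 (double KO minus Tut1 KO, where it was 0.09). G6pdx, which encodes its first enzyme and is X-linked, had 66.3, 50.6, 79.8 and 50.3 TPM. Of 8 genes of gluconeogenesis and glycogen, 5 were highest and 0 lowest in the Trp53 KO library, against 19.6% and 24.3% of all genes. Their median in Trp53 KO minus control was 0.15, with 6 above 0, against -0.05 and 40.1% over all genes. Double KO minus Trp53 KO, which shares that library, gave -0.25, with 6 below 0, against 0.05 and 41.3%. Gys1 is the glycogen synthase gene of most tissues. It had 58.1 TPM (control) against 27.2, 37.8 and 27.9 TPM in the Cre libraries (Tut1 KO, Trp53 KO, double KO). Only Gys1 of the 8 was past 2-fold in a contrast, against 8.6% of all genes past it in at least 1. Gys1 overlaps exons of Ruvbl2 on the other strand, which had 209 to 240 TPM. Among markers of other cell types, astrocyte markers summed to 125 to 137 TPM and oligodendrocyte markers to 10.7 to 16.0 TPM.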
